A study of Mus musculus with 6 samples.

Results

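Transcript levels of 10 genes that Wnt/beta-catenin signaling switches on, Axin2, Lef1, Tcf7, Nkd1, Nkd2, Rnf43, Znrf3, Apcdd1, Sp5 and Lgr5, were compared between mouse tumors driven by the SS18-SSX2 fusion and by the SS18-SSX1 fusion. The genes were chosen by name, with earlier results of these data known, and all 10 were found among the 17312 genes measured. RNA came from 3 leg tumors of mice with a Cre-lox inducible allele of SS18-SSX2 and from 3 of mice with a Cre-lox inducible allele of SS18-SSX1. The fusion drives synovial sarcoma: its SS18 portion comes from a protein that normally sits in the BAF chromatin remodelling complex, and its tail comes from an SSX protein. All mice had been injected with TATCre, Cre recombinase made able to enter cells, near the tibia, and tumors of both genotypes were taken about 1 year later without further treatment. The labels give neither the strain, sex or age of the mice nor the locus and promoter of the alleles, and separate mice are not stated as their source, so p-values cover the spread among these samples and nothing further.

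In Wnt signaling, a Wnt protein bound to Frizzled and LRP receptors stops a destruction complex built on AXIN and APC from degrading beta-catenin. Beta-catenin then enters the nucleus, joins transcription factors of the TCF/LEF family on DNA and turns on target genes, many of which feed back on the pathway. Human synovial sarcoma is known for nuclear beta-catenin in a part of cases.

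Levels are given as FPKM, fragment counts scaled to gene length and library size, which can be compared between genes because they are set per length. Library totals inferred from the spacing of low values ran from 7284210 reads in SS18-SSX2 tumor 2 to 17545042 in SS18-SSX1 tumor 3. Of 8 marker genes of synovial sarcoma, none was at 0 in any tumor. Tle1, a corepressor used as a marker of the disease, had 29.8 to 37.0 FPKM in SS18-SSX2 tumors and 23.3 to 25.7 FPKM in SS18-SSX1 tumors. Crabp1, another of these markers, had 1.12 to 2.00 FPKM in SS18-SSX2 tumors and 154, 27.8 and 1.63 FPKM in SS18-SSX1 tumors 1, 2 and 3. Zic2, the marker with the highest mean, had 72.5 to 115 FPKM in SS18-SSX2 tumors and 55.0 to 115 FPKM in SS18-SSX1 tumors. Of the 8 markers only Tle1 did not overlap between genotypes, and the test across all genes described below called 0 of them. The tumors also held RNA of other cell types. Averaged over 22 genes of skeletal muscle fibres, log2(FPKM + 1) was 6.70 in SS18-SSX2 tumor 2 and 7.85 in SS18-SSX1 tumor 2, against 2.30 to 3.48 in the other 4 tumors, and that of 8 mast cell genes was 7.14 in SS18-SSX1 tumor 3, against 1.27 to 3.21 elsewhere. In such bulk samples fewer cells of a type and less RNA per cell cannot be told apart. Ddx3y, a gene of the Y chromosome, had at most 0.0148 FPKM in SS18-SSX2 tumors and 28.2 to 35.2 FPKM in SS18-SSX1 tumors. Xist, a gene of the X chromosome, had 56.3 to 175 FPKM in SS18-SSX2 tumors and 3.58 to 7.03 FPKM in SS18-SSX1 tumors. Genotype and sex thus cannot be told apart for any gene, the members included.

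Axin2, Rnf43 and Apcdd1 had higher levels in every SS18-SSX2 tumor than in any SS18-SSX1 tumor, by 2.083, 3.35 and 1.99 times in the means, while the means of Lef1 (11.6 and 11.2 FPKM in SS18-SSX2 and SS18-SSX1 tumors), Tcf7 (4.64 and 5.01 FPKM) and Znrf3 (6.64 and 7.11 FPKM) lay close together. No member passed the test across all genes. Fold changes are differences of log2(FPKM + 1), with SS18-SSX1 subtracted from SS18-SSX2. With limma and Benjamini-Hochberg adjustment over 13873 genes, 0 of 10 members were called at an adjusted p of 0.05, where the background was 0.0649% of all tested genes, or 9 genes. Of those 9, 6 were higher in SS18-SSX2 tumors, against 3 of 7 calls after rescaling to TPM, 3 of 6 after quantile normalization and 4 of 7 with upper quartile scaling. The 9 included the sex-linked genes Ddx3y (limma adjusted p = 0.000836) and Xist (limma adjusted p = 0.0413). At an unadjusted p under 0.05, 3 members were higher, the same Axin2, Rnf43 and Apcdd1, and 0 were lower, where 3.26% of all tested genes were higher. The genotypes did not overlap, with SS18-SSX2 higher, for 3 of 10 members and for 4.97% of all tested genes. Without a filter on low values the share of all genes was 5.28%, with the same 3 members. A minimum mean of 5 FPKM left out Rnf43, Sp5 and Tcf7. Of the 7 members then tested, Axin2 and Apcdd1 did not overlap, beside 4.29% of all genes. A log2 fold change of at least 1 was found for 5 members (Axin2, Rnf43, Apcdd1, Sp5 and Nkd2) and for 3.47% of all tested genes. The mean of log2(FPKM + 1) was higher in SS18-SSX2 tumors for 9 of 10 members, all but Znrf3 (Tcf7, higher on this scale, was lower in mean FPKM), where 51.1% of all tested genes were higher, and for 8 to 10 members with 1 tumor left out. The median log2 fold change of the members was 0.92, beside 0.01 over all tested genes, and leaving out SS18-SSX1 tumor 1 gave 0.48. The count without overlap was 5 (9.05% of all tested genes) when SS18-SSX1 tumor 2 was left out, adding Nkd1 and Nkd2, and 6 (10.5%) when SS18-SSX1 tumor 3 was left out, adding Lgr5, Sp5 and Tcf7. It was 4 (10.4%) when SS18-SSX2 tumor 1 was left out, adding Sp5. It stayed at 3 when SS18-SSX1 tumor 1 (14.5%), SS18-SSX2 tumor 2 (11.9%) or SS18-SSX2 tumor 3 (6.13%) was left out.

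**Figure D1:**
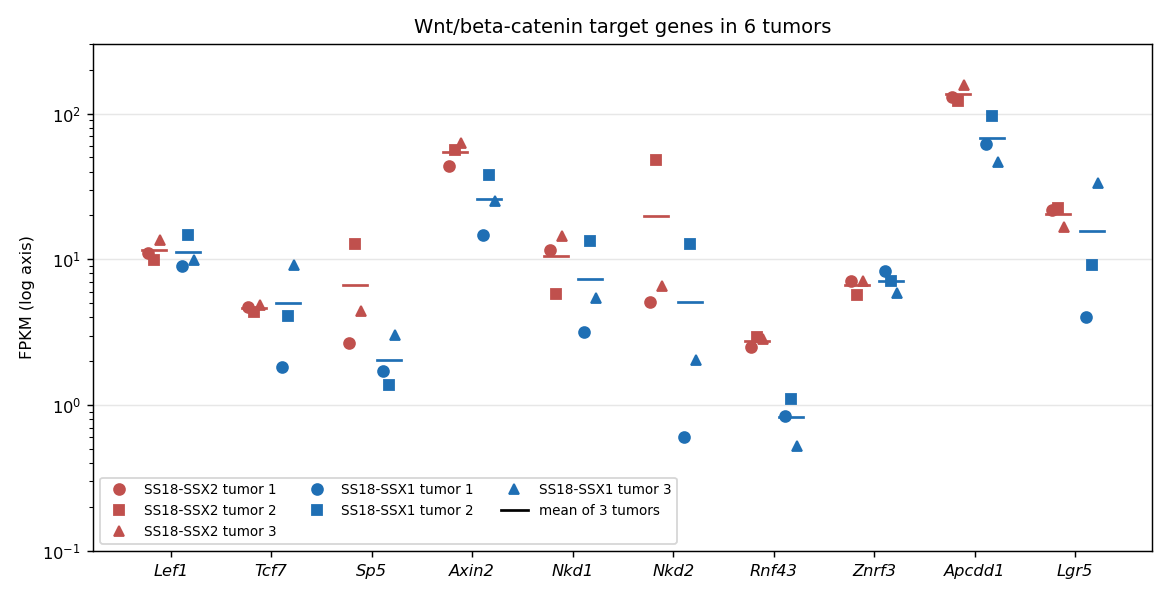
FPKM of the 10 target genes on a log axis, with 1 point per tumor (circle, square and triangle for tumors 1, 2 and 3; SS18-SSX2 in red, SS18-SSX1 in blue) and a line at the mean of 3 tumors. For Axin2, Rnf43 and Apcdd1 all red points lie above all blue points, and for the other 7 genes the colours overlap.

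Lef1 and Tcf7 encode TCF/LEF factors, the DNA-binding partners of beta-catenin, and are themselves Wnt targets. Lef1 stood at 11.1, 9.91 and 13.7 FPKM in SS18-SSX2 tumors 1, 2 and 3 and at 8.94, 14.7 and 9.95 FPKM in SS18-SSX1 tumors 1, 2 and 3. The highest and the second lowest value came from the muscle-rich tumors 2, and the genotypes overlapped throughout. Its log2 fold change was 0.06 (SE 0.28), with a 95% interval from -0.58 to 0.70. Tcf7 had 4.69, 4.34 and 4.88 FPKM in SS18-SSX2 tumors and 1.83, 4.07 and 9.14 FPKM in SS18-SSX1 tumors. The SS18-SSX2 tumors lay close together, inside a range of SS18-SSX1 tumors that spanned 4.99 times from the lowest to the highest. The fold change of Tcf7 was 0.10 (SE 0.46), with an interval from -0.96 to 1.15, and it was -0.35 without SS18-SSX1 tumor 1.

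Both factors are also well known from T cells. The summed level of 6 T cell genes (Cd3e, Cd3g, Cd4, Cd8a, Cd28 and Trac), all 6 of them in the table, ran from 0.796 to 7.85 FPKM in SS18-SSX2 tumors and from 0.856 to 4.45 FPKM in SS18-SSX1 tumors. In SS18-SSX1 tumor 3, which had the most Tcf7, that sum was 0.856 FPKM and 2 of the 6 genes were at 0. The part of T cells in the Lef1 and Tcf7 values was not tested. The ratio of Lef1 to Tcf7 was 2.28 to 2.80 in SS18-SSX2 tumors and 4.88, 3.60 and 1.09 in SS18-SSX1 tumors 1, 2 and 3.

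Sp5 encodes a zinc finger factor of the Sp family, induced directly by beta-catenin in mouse embryos and stem cells. It had 2.65, 12.8 and 4.44 FPKM in SS18-SSX2 tumors and 1.72, 1.38 and 3.01 FPKM in SS18-SSX1 tumors. SS18-SSX2 tumor 2 stood well above the rest, and SS18-SSX2 tumor 1 lay below SS18-SSX1 tumor 3. These values rested on 81, 196 and 134 reads in SS18-SSX2 tumors and 48, 40 and 111 reads in SS18-SSX1 tumors. The log2 fold change was 1.13 (SE 0.51, limma adjusted p = 0.997, unadjusted p = 0.0562) and it was 0.59 without SS18-SSX2 tumor 2. That tumor also had the highest level of 6 B and plasma cell genes, with a sum of 740.4 FPKM against 5.02 to 5.04 in the other SS18-SSX2 tumors and 2.04 to 80.1 in SS18-SSX1 tumors. SS18-SSX2 tumor 2 was also the highest in the summed level of 8 macrophage genes (455 FPKM) and of 6 T cell genes (7.85 FPKM), and it was rich in muscle genes. The part of any of these cell types in the Sp5 value was not tested.

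Promoter windows from RefSeq (GRCm38.p6) were found for 7 of the 10 members, and the 250 bases before each start were searched on both strands for the core of the TCF/LEF motif, the letters CTTTG followed by 2 bases that are each A or T. Of the 7 members, 2 held a match, Sp5 and, in 1 of its 4 windows, Lef1, where 16.8% of all 27025 genes with a window did. Counted by window, 2 of 12 member windows (16.7%) held a match, beside 14.8% of all 32851 windows. The windows of Sp5, with its matches, and of Axin2 and Rnf43, the members with a window whose genotypes did not overlap, are shown to set a window with the motif beside windows without it. Matches are in capitals. In Sp5 they begin 222 and 104 bases before the start, the first on the reverse strand (read here as AACAAAG) and the second, CTTTGAT, on the strand of the gene. A match describes the letters only, and TCF/LEF sites of these genes may lie outside these windows. The windows are chr2:70474673-70474922 for Sp5, chr11:108920099-108920348 for Axin2 and chr11:87662837-87663086 for 1 of 2 windows of Rnf43, all on the plus strand.
Sp5: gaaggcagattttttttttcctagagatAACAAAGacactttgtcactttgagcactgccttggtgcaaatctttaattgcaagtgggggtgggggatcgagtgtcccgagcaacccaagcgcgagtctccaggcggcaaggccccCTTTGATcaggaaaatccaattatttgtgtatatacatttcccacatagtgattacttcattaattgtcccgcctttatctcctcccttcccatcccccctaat
Axin2: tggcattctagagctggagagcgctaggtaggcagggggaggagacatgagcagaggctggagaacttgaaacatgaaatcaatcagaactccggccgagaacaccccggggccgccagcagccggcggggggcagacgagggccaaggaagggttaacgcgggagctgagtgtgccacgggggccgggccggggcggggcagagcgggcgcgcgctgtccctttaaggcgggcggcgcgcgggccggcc
Rnf43: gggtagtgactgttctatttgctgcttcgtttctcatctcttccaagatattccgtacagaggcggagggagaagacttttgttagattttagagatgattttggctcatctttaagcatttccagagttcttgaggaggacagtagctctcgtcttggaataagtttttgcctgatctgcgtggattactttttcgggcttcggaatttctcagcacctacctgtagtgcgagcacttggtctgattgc

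Axin2, Nkd1 and Nkd2 encode inhibitors inside the cell. Axin2 is a scaffold of the destruction complex that beta-catenin induces as negative feedback, and it is widely used as a readout of the pathway. It had 43.4, 56.6 and 62.5 FPKM in SS18-SSX2 tumors and 14.8, 37.9 and 25.3 FPKM in SS18-SSX1 tumors. All SS18-SSX2 tumors were higher, the lowest of them 1.14 times the highest SS18-SSX1 tumor. The means were 54.2 ± 9.78 FPKM in SS18-SSX2 tumors and 26.005 ± 11.6 FPKM in SS18-SSX1 tumors (SD, n = 3 each). The log2 fold change was 1.11 (SE 0.36), with an interval from 0.27 to 1.95, and did not pass over all genes (limma, Benjamini-Hochberg adjusted p = 0.803, unadjusted p = 0.0160, higher in 3 of 3 SS18-SSX2 tumors). With each tumor left out in turn it ran from 0.77 to 1.42.

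Nkd1 and Nkd2 are Naked cuticle proteins, which bind Dishevelled and dampen the signal. Nkd1 had 11.6, 5.76 and 14.4 FPKM in SS18-SSX2 tumors and 3.17, 13.4 and 5.43 FPKM in SS18-SSX1 tumors. The values of the 2 genotypes interleaved, and the log2 fold change was 0.59 (SE 0.51), with an interval from -0.60 to 1.77. Nkd2 had 5.12, 48.1 and 6.51 FPKM in SS18-SSX2 tumors and 0.604, 12.8 and 2.04 FPKM in SS18-SSX1 tumors. Tumor 2 was the highest of each genotype for Nkd2, and its 79.7-fold range over the 6 tumors was the widest among the members. Its log2 fold change was 1.69 (SE 0.98), with an interval from -0.58 to 3.96.

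The tumors highest in Nkd2 were those highest in skeletal muscle genes. The summed level of the 22 muscle fibre genes was 130.4, 5741 and 160 FPKM in SS18-SSX2 tumors and 367, 12734 and 558 FPKM in SS18-SSX1 tumors, with Myh7 at 0 in SS18-SSX1 tumor 3. Muscle RNA was higher in SS18-SSX1 tumor 2 than in SS18-SSX2 tumor 2, while Nkd2 was lower there. The part of muscle in the Nkd2 and Nkd1 values was not tested. Without tumor 2 of either genotype, chosen with the values known, the log2 fold change of Nkd2 was 1.62 (SE 0.45, limma adjusted p = 0.348) and that of Nkd1 was 1.43 (SE 0.40, adjusted p = 0.359). With 1 tumor left out, the fold change of Nkd2 was 0.74 when SS18-SSX2 tumor 2 was dropped, 1.02 when SS18-SSX1 tumor 1 was dropped and 2.57 when it was SS18-SSX1 tumor 2. That of Nkd1 became 0.34 on dropping SS18-SSX2 tumor 3, 0.93 on dropping SS18-SSX2 tumor 2, 0.18 on dropping SS18-SSX1 tumor 1 and 1.08 on dropping SS18-SSX1 tumor 2. In the 4 tumors left without both tumors 2, 6 members did not overlap between genotypes (Axin2, Rnf43, Apcdd1, Lef1, Nkd1 and Nkd2), where 16.3% of all tested genes were higher without overlap. Nkd2 exceeded Nkd1 only in SS18-SSX2 tumor 2, by 8.36 times, with a ratio of 0.191 to 0.950 in the other 5 tumors.

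Rnf43 and Znrf3 encode paralogous membrane ubiquitin ligases that remove Frizzled receptors from the cell surface, and both act as negative feedback. Rnf43 had 2.52, 2.95 and 2.84 FPKM in SS18-SSX2 tumors and 0.847, 1.11 and 0.521 FPKM in SS18-SSX1 tumors. Of all members it showed the widest gap between genotypes, with the lowest SS18-SSX2 tumor at 2.27 times the highest SS18-SSX1 tumor. The values rested on 240, 141 and 267 reads in SS18-SSX2 tumors and 74, 100 and 60 reads in SS18-SSX1 tumors. Rnf43 passed the filter of 1 FPKM in 3 tumors through all SS18-SSX2 tumors and SS18-SSX1 tumor 2. The means were 2.77 ± 0.224 FPKM in SS18-SSX2 tumors and 0.825 ± 0.294 FPKM in SS18-SSX1 tumors (SD, n = 3 each). It had the smallest p of the members, placed 145 among all tested genes, with a log2 fold change of 1.06 (SE 0.29, limma adjusted p = 0.602, unadjusted p = 0.00635, interval from 0.39 to 1.72). Over the other settings its adjusted p ran from 0.451 to 0.99997.

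Znrf3 had 7.13, 5.70 and 7.09 FPKM in SS18-SSX2 tumors and 8.36, 7.10 and 5.88 FPKM in SS18-SSX1 tumors. Its 1.47-fold range over all tumors was the narrowest of the members, and the genotypes overlapped. The log2 fold change was -0.08 (SE 0.26), with an interval from -0.68 to 0.52. The ratio of Znrf3 to Rnf43 was 2.83, 1.93 and 2.499 in SS18-SSX2 tumors and 9.87, 6.41 and 11.3 in SS18-SSX1 tumors. Znrf3 was thus the more abundant ligase transcript in every tumor, by a smaller margin in each SS18-SSX2 tumor, a ratio chosen after the values were seen and not tested.

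Apcdd1 and Lgr5 act at the cell surface. Apcdd1 is a membrane glycoprotein that binds Wnt proteins and LRP5 and inhibits the pathway, and it was the most abundant member, with a mean above that of 97.8% of tested genes. It had 131, 122 and 156 FPKM in SS18-SSX2 tumors and 61.7, 96.8 and 46.9 FPKM in SS18-SSX1 tumors. Every SS18-SSX2 tumor was higher, the lowest of them 1.26 times the highest SS18-SSX1 tumor. The means were 136 ± 17.5 FPKM in SS18-SSX2 tumors and 68.5 ± 25.6 FPKM in SS18-SSX1 tumors (SD, n = 3 each), and the log2 fold change was 1.04 (SE 0.34, limma adjusted p = 0.803, unadjusted p = 0.0163, interval from 0.25 to 1.83).

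Lgr5, a receptor for R-spondins that marks stem cells in several tissues, had 21.7, 22.5 and 16.7 FPKM in SS18-SSX2 tumors and 4.05, 9.09 and 33.6 FPKM in SS18-SSX1 tumors. SS18-SSX1 tumor 3 was the highest of all and SS18-SSX1 tumors 1 and 2 the lowest, with the SS18-SSX2 tumors between them. The log2 fold change was 0.81 (SE 0.63), with an interval from -0.64 to 2.26, and it was 1.57 without SS18-SSX1 tumor 3 and 0.18 without SS18-SSX1 tumor 1. SS18-SSX1 tumor 3 was also the tumor rich in mast cell genes, whose 8 members, none of them at 0 in any tumor, summed to 13.8 to 63.8 FPKM in SS18-SSX2 tumors and 99.4, 64.9 and 2519 FPKM in SS18-SSX1 tumors 1, 2 and 3. Their part in the Lgr5 value was not tested.

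**Figure D2:**
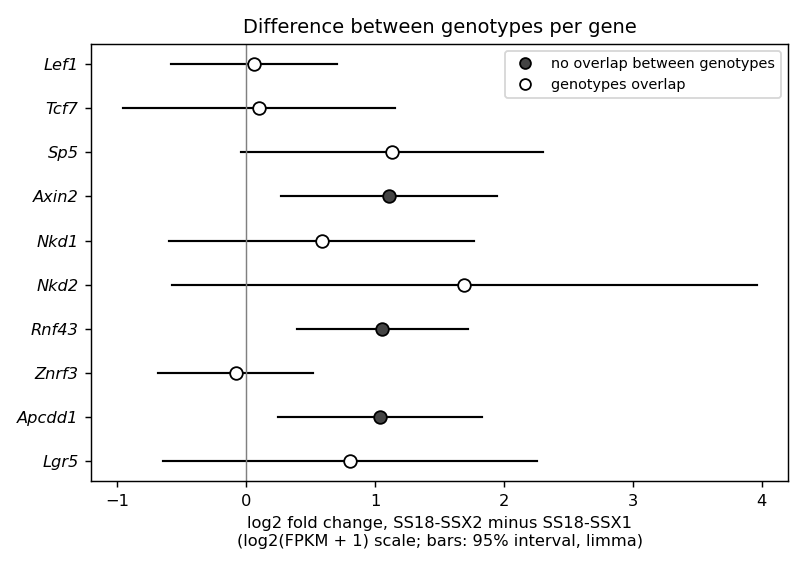
Log2 fold change of each member (SS18-SSX2 less SS18-SSX1, in log2(FPKM + 1)) with its 95% interval from limma, filled where the genotypes do not overlap. The intervals of Axin2, Rnf43 and Apcdd1 lie above 0 and those of the other 7 genes include 0, the widest being that of Nkd2 from -0.58 to 3.96.

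Set side by side, SS18-SSX1 tumor 1 was the low point of the set. It had the lowest value of 6 members (Axin2, Lef1, Tcf7, Nkd1, Nkd2 and Lgr5) and lay under the 6-tumor mean of log2(FPKM + 1) for all members except Znrf3, which was highest there. SS18-SSX2 tumor 3 lay above the 6-tumor mean for all 10 members, SS18-SSX2 tumor 1 for 7 and SS18-SSX2 tumor 2 for 6. Among SS18-SSX1 tumors, tumor 2 lay above it for 6 members and tumor 3 for 2, which were Tcf7 and Lgr5. The summed level of 5 fibroblast genes (Pdgfra, Dcn, Lum, Col1a1 and Col3a1) was 1404, 1358 and 2133 FPKM in SS18-SSX2 tumors and 403, 3171 and 494 FPKM in SS18-SSX1 tumors 1, 2 and 3, with none at 0. SS18-SSX1 tumors 1 and 3 were thus the lowest in this sum and in Axin2 alike. In SS18-SSX1 tumor 1 Dcn (6.27 FPKM) and Lum (0.326 FPKM) were at their lowest. Col1a1 (262 FPKM) and Col3a1 (58.3 FPKM) were below every SS18-SSX2 tumor there, while Pdgfra (76.2 FPKM) lay within their range. The summed level of 8 macrophage genes was also lowest in that tumor, at 35.5 FPKM. It was 109 to 455 FPKM in SS18-SSX2 tumors and 236 and 308 FPKM in SS18-SSX1 tumors 2 and 3. The genes of the fibroblast list differed more in the other low tumor. In SS18-SSX1 tumor 3 Col1a1 (249 FPKM) and Col3a1 (33.1 FPKM) were at their lowest, while Dcn (138 FPKM) was at its highest. Pdgfra (65.1 FPKM) and Lum (8.84 FPKM) lay there within the range of SS18-SSX2 tumors. The part of fibroblasts or macrophages in the members' values was not tested.

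**Figure D3:**
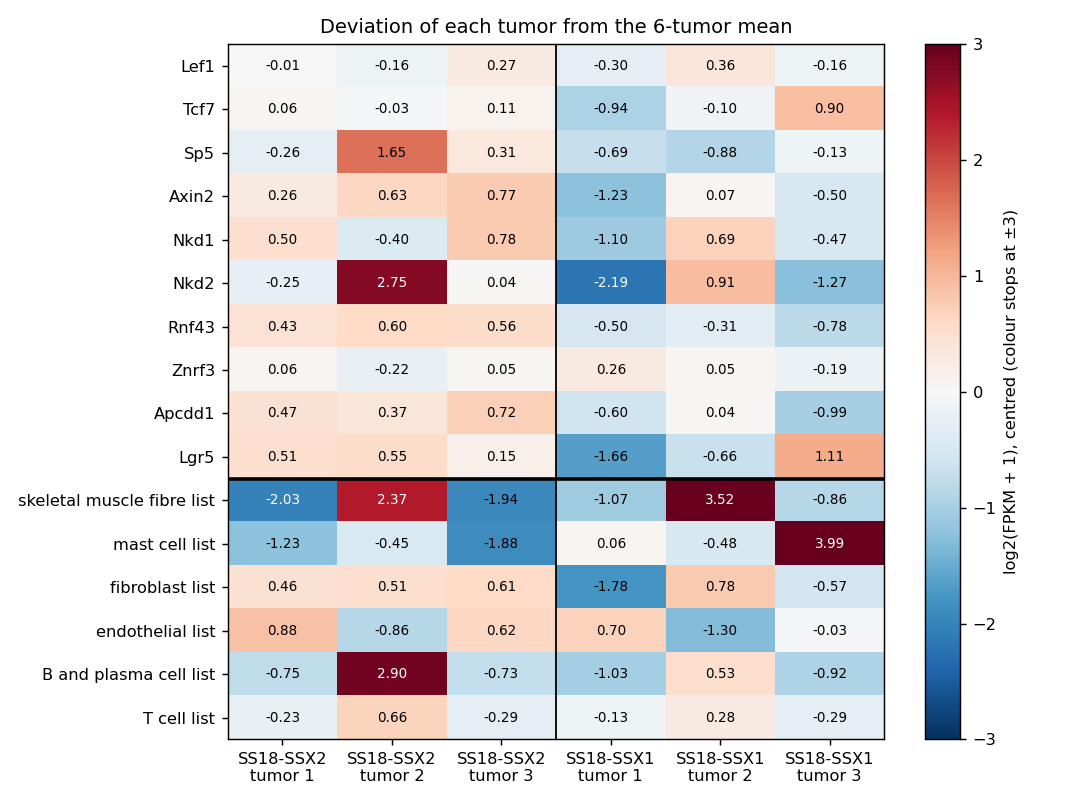
Deviation of each tumor from the mean of the 6 tumors in log2(FPKM + 1), for the 10 members (above the black line) and for the mean of 6 marker lists (below it), with SS18-SSX2 tumors on the left. SS18-SSX1 tumor 1 is below the mean for 9 of 10 members, and the tumors 2 stand out for muscle genes.

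Further genes of the pathway were taken from a list of 53 that holds neither Wnt ligands nor Frizzled receptors and includes 17 further targets. The list had 50 in the table and 49 tested, of which limma called 0 in either direction, with 2 higher (Wif1 and Lgr6) and 1 lower (Lgr4) in SS18-SSX2 tumors at an unadjusted p under 0.05. The background was 3.26% higher and 1.71% lower, and none of the 49 genes was without overlap between genotypes, where 4.97% of tested genes were so with SS18-SSX2 higher and 3.76% with SS18-SSX2 lower. T, a further target below the filter, did not overlap. It had 0.237 to 0.386 FPKM in SS18-SSX2 tumors and 0.0324 to 0.157 FPKM in SS18-SSX1 tumors. Without the filter 5.28% of all genes were higher without overlap. The median log2 fold change was -0.04 over 15 genes of the destruction complex and its regulators, 0.18 over 5 genes of signal relay and 0.10 over 10 nuclear effectors. Ctnnb1, which encodes beta-catenin, had 251, 187 and 210.1 FPKM in SS18-SSX2 tumors and 212, 187 and 178 FPKM in SS18-SSX1 tumors, a log2 fold change of 0.16 (SE 0.34), and of 0.04 to 0.26 with 1 tumor left out. The genotypes overlapped, and RNA levels say nothing of the amount of beta-catenin protein. The casein kinase genes Csnk1d and Csnk1a1 and the coreceptor gene Lrp6 had log2 fold changes of 0.10 (SE 0.23), -0.14 (SE 0.34) and 0.16 (SE 0.31), and Fbxw11, a ubiquitin ligase subunit that recognizes beta-catenin, had -0.33 (SE 0.26), and from -0.46 to -0.15 with 1 tumor left out, where Csnk1d ran from 0.02 to 0.21.

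The levels of the TCF factors outside the set overlapped between genotypes. Tcf7l1, mainly a repressor, had 4.31, 9.16 and 10.2 FPKM in SS18-SSX2 tumors and 6.03, 12.5 and 4.76 FPKM in SS18-SSX1 tumors, with a log2 fold change of 0.05 (SE 0.43) whose sign changed with quantile normalization (-0.01). Tcf7l2 had 4.41, 4.15 and 5.08 FPKM in SS18-SSX2 tumors and 7.91, 4.46 and 3.80 FPKM in SS18-SSX1 tumors (log2 fold change -0.15, SE 0.32). Lef1 exceeded both in mean level over the 6 tumors.

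Receptors and ligands of the R-spondin system, which protects Frizzled from Rnf43 and Znrf3, gave values in both directions. Lgr4 had 16.5, 6.998 and 9.93 FPKM in SS18-SSX2 tumors and 28.01, 19.8 and 15.3 FPKM in SS18-SSX1 tumors, and Lgr6 had 47.7, 23.6 and 58.9 FPKM in SS18-SSX2 tumors and 25.3, 18.6 and 20.3 FPKM in SS18-SSX1 tumors. Each overlapped between genotypes by a single SS18-SSX2 tumor. Their log2 fold changes were -0.90 (SE 0.36) for Lgr4 and 0.90 (SE 0.36) for Lgr6, both with a limma adjusted p of 0.952. Rspo3, an R-spondin ligand, had 18.1, 6.25 and 9.69 FPKM in SS18-SSX2 tumors and 15.6, 16.0 and 41.6 FPKM in SS18-SSX1 tumors (log2 fold change -1.01, SE 0.48, and -0.56 without SS18-SSX1 tumor 3). The other tested ligands, Rspo1 and Rspo2, had log2 fold changes of 0.18 (SE 0.69) and 0.10 (SE 0.48). The median over the 5 tested genes of this system was 0.10.

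Among 17 further genes often used as Wnt targets, 14 were tested, 11 with a higher and 3 with a lower mean log2(FPKM + 1) in SS18-SSX2 tumors, and the median log2 fold change was 0.24. Wif1, a secreted inhibitor that binds Wnt proteins, had 46.4, 5.49 and 39.3 FPKM in SS18-SSX2 tumors and 4.58, 9.31 and 0.5401 FPKM in SS18-SSX1 tumors. The muscle-rich SS18-SSX2 tumor 2 fell among the SS18-SSX1 tumors, and the log2 fold change was 2.38 (SE 0.91, limma adjusted p = 0.899), and 3.90 without both tumors 2. Notum, a secreted enzyme that inactivates Wnt proteins, had 5.74, 6.38 and 8.30 FPKM in SS18-SSX2 tumors and 1.28, 10.3 and 2.89 FPKM in SS18-SSX1 tumors, with SS18-SSX1 tumor 2 the highest. Its log2 fold change was 0.74 (SE 0.55), with 0.22 on dropping SS18-SSX1 tumor 1 and 1.38 on dropping SS18-SSX1 tumor 2. Fgf18 had 0.75 (SE 0.51) and Fgf9 -0.62 (SE 0.38), both growth factors of the FGF family. With 1 tumor left out Fgf18 ran from 0.39 (SS18-SSX1 tumor 1 dropped) to 1.32 (SS18-SSX1 tumor 2 dropped), and Fgf9 from -0.96 (SS18-SSX1 tumor 2 dropped) to -0.38 (SS18-SSX1 tumor 1 dropped). Ccnd1, the cyclin D1 gene often named as a Wnt target, had 121, 102 and 138 FPKM in SS18-SSX2 tumors and 133, 81.6 and 151 FPKM in SS18-SSX1 tumors (log2 fold change 0.02, SE 0.34, and -0.13 without both tumors 2). Tnfrsf19, a receptor of the TNF family, had 50.7, 371 and 45.5 FPKM in SS18-SSX2 tumors and 54.2, 24.1 and 381 FPKM in SS18-SSX1 tumors, so that 1 tumor of each genotype stood far above the rest. Its log2 fold change was 0.25 (SE 1.12), and -1.57 without both tumors 2.

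**Figure D4:**
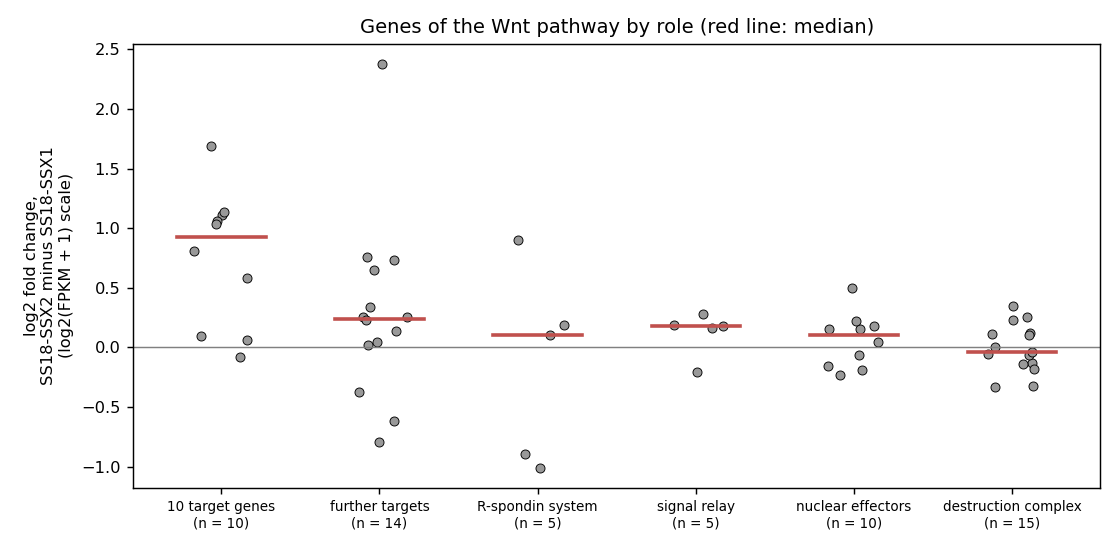
Log2 fold change (SS18-SSX2 less SS18-SSX1, in log2(FPKM + 1)) of the tested genes in 6 groups of the Wnt pathway, with 1 point per gene and a red line at the median. The median is 0.92 for the 10 target genes, 0.24 for 14 further targets and -0.04 for 15 genes of the destruction complex and its regulators.

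The genes whose profile over the 6 tumors lay nearest to that of a member were sought among 9913 other genes with a mean of at least 5 FPKM. The measure was the root mean square difference of log2(FPKM + 1) values centred on the 6-tumor mean. For Axin2 the nearest were Ptms (0.140), Pim1 (0.180), Psmb5 (0.181), Atf5 (0.204) and Unc5a (0.215). Ptms, for example, had 252, 306 and 402 FPKM in SS18-SSX2 tumors and 105, 240.4 and 186 FPKM in SS18-SSX1 tumors, with the same order of tumors as Axin2. For Rnf43 the nearest were 1810030O07Rik (0.134), Ece2 (0.139), Uba1 (0.142), Hipk2 (0.187) and Thy1 (0.188). The scale understates differences of low genes. Rnf43, with a mean of 1.80 FPKM, differed 3.35 times in the means but had a log2 fold change of 1.06. Its nearest genes, all more abundant, thus match it on this scale and not in FPKM ratios. None of these 10 genes belongs to the pathway lists used here.

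On GRCm38, which mm10 also names, Axin2 (ENSMUSG00000000142) spans 108920349 to 108950783 on chromosome 11, Rnf43 (ENSMUSG00000034177) spans 87662722 to 87735539 on the same chromosome, and Apcdd1 (ENSMUSG00000071847) spans 62922231 to 62961179 on chromosome 18. Exons of Axin2 share 209 bases with the antisense gene Gm11670, and exons of Lef1 share 1208 bases with the antisense gene Gm43352. The sources used here do not say whether counting used strand, so reads of these antisense genes may be part of the Axin2 and Lef1 values.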

How the data were processed

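The authors deposited 1 table of FPKM values for 6 tumors, with 1 column per tumor. Per the submitters' processing notes Novoalign 2.08.03 and build mm10 were used, in roles not stated. Per the labels' protocols, libraries were made from total RNA with Ribo-Zero. The sources used here give neither the counting tool nor gene models nor strand handling. Columns were matched to tumors by the samples' descriptions, and identifiers to GENCODE M21 symbols, found for 17029 of 17312 genes.

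Genes with at least 1 FPKM in at least 3 tumors entered 1 fit of log2(FPKM + 1) in limma 3.58.1 (R 4.3.3, eBayes with a trend). The contrast was SS18-SSX2 minus SS18-SSX1, the test two-sided, the threshold an adjusted p of 0.05 (Benjamini-Hochberg, 13873 genes). Fold changes on this scale understate those of low genes. The script was run on simulated data with changes added to some genes, and only the median size of the estimates was checked. Noise there was drawn for each gene alone, without the shared differences in cell types or sex seen in these tumors. Library totals were those that made low values of single-exon genes whole reads, and 77.5% to 81.8% of low values came out whole within 0.02 reads. Reads are printed only for the 3 members that came out whole within 0.1 reads in all tumors with the annotated exon length. 1 read in a transcript of 1 kb was worth 0.0570 to 0.137 FPKM. The members and lists were chosen with earlier results of these data known. Named genes were all members, the pathway genes of smallest p or highest mean, with Ctnnb1, Tcf7l1, Tcf7l2, Lgr4 and Lgr6 added by name, and the nearest profiles. Rspo1, Rspo2 and T were named besides and are left out of the counts of fits that kept their direction. Alternatives were other pseudocounts (0.1, 0.5), filters (none, a mean of 5 FPKM), scalings (TPM, quantile, upper quartile), eBayes without a trend, the tumor number as a block, and tumors left out. Tables used pandas 2.3.3 and numpy 2.4.6 in Python 3.11.15, and figures used matplotlib 3.10.9.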

Additional observations from a re-analysis of the deposited data

How the results depend on the processing

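Under all 16 other settings 0 members and 0 pathway genes were called, while calls over all tested genes ran from 3 (without SS18-SSX2 tumor 3) to 20 (without both tumors 2), beside 9. The fold changes of members kept their direction in 150 of 157 fits and those of named pathway genes in 239 of 255. The members' median log2 fold change ran from 0.48 to 1.03. Members higher without overlap numbered 3 to 6 with 1 tumor left out, where 6.13% to 14.5% of all tested genes were so, and 6 without both tumors 2 (16.3%). Signs changed without both tumors 2 for Znrf3 (0.0151), Tnfrsf19 (-1.57) and Ccnd1 (-0.13), and with quantile normalization for Tcf7l1 (-0.00744). With 1 tumor left out signs changed for Lef1 (-0.0719 to 0.26), Tcf7 (-0.35 to 0.57), Znrf3 (-0.19 to 0.0277), Tnfrsf19 (-0.72 to 1.37), Ccnd1 (-0.24 to 0.19), Lrp6 (-0.0870 to 0.39), Csnk1a1 (-0.45 to 0.10), Tcf7l1 (-0.20 to 0.41) and Tcf7l2 (-0.33 to 0.11). The cause of these changes was not tested. With the tumor number as a replicate block 0 members were called and 4 of all tested genes, and the members' median log2 fold change was 0.92. Deviations from the genotype mean had correlations of 0.38, 0.31 and -0.28 between tumors that share number 1, 2 and 3. Between tumors of unlike number they ran from -0.44 to 0.23. Deviations from a mean of 3 tumors are tied to each other, so these values cannot settle whether the number is a pairing. The column names of both tumors 2 begin with A and those of both tumors 3 with B. Those of both tumors 1 begin with N and a number that differs between them. The labels do not say what these letters mean. With 3 tumors per genotype the 95% intervals of the members span 1.21 to 4.54 log2 units. SS18-SSX2 tumor 2 had the fewest reads.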

Other observations

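The R-spondin receptor transcripts Lgr6 and Lgr4 were set side by side after their values were seen, and the difference was not tested. The ratio of Lgr6 to Lgr4, both in FPKM, was 2.89, 3.38 and 5.93 in SS18-SSX2 tumors 1, 2 and 3 and 0.904, 0.941 and 1.33 in SS18-SSX1 tumors 1, 2 and 3. Lgr6 thus exceeded Lgr4 in all SS18-SSX2 tumors and in SS18-SSX1 tumor 3.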
